A study of Mus musculus with 4 samples.

Results

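Vascular smooth muscle cells of the ascending aorta were compared between 2 single-cell libraries that the labels separate by embryonic origin, CNC AngII and SHF AngII, both taken after 3 days of angiotensin II (AngII) infusion. The comparison covered every gene above a fixed level. The cells were chosen by transcripts alone: a barcode needed at least 500 detected genes, at most 10% of its UMIs from mitochondrial (mt-) genes, at least 5 UMIs of Myh11 (smooth muscle myosin heavy chain), and no UMI of Pdgfra, Ptprc or Pecam1, which mark fibroblasts, leukocytes and endothelium. This gate held 10730 of the 19961 barcodes kept in both libraries, 6207 in CNC AngII and 4523 in SHF AngII, out of 31676 barcodes in the 3 libraries read. UMIs were summed over the gated cells of a library and expressed as CPM, which scales every library to the same total. The ratio used throughout is log2 of CNC AngII over SHF AngII after adding 1 CPM to each, so that a positive value means a higher level in CNC AngII.

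The smooth muscle of the ascending aorta arises from more than one embryonic source. Cells derived from the second heart field, a mesodermal progenitor population that also builds the outflow tract of the heart, lie beside cells of other origins, among them the neural crest. Smooth muscle cells carry the contractile apparatus of the vessel wall and also make its elastic fibres, collagens and proteoglycans. Angiotensin II, the effector peptide of the renin-angiotensin system, contracts these cells and, when infused, drives remodelling of the ascending aorta in mice.

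All libraries came from male mice of the strain labelled Mef2c-mTmG. mTmG is a reporter that switches from membrane Tomato to membrane GFP after recombination, and Mef2c regulatory sequence is in common use to trace the second heart field; the labels do not describe the driver further, and the cells of each fraction are those the tracer did or did not mark. The aortic tissue was digested, live single cells were sorted by the lineage reporter, and the sorted fractions were run on the 10x Chromium 3' version 3 chemistry. SHF names the fraction assigned to the second heart field. CNC is read here as the fraction of other origins, and the labels do not spell the abbreviation out. The series' stated aim was to compare the response to AngII between cells of second heart field origin and cells of other origins in this vessel. Both groups compared here therefore share the strain, the sex, the infusion and its length, and differ in the sorted lineage. The number of mice behind a library and whether mice were pooled are not given in the labels. Levels in the SHF baseline library, from mice without infusion, are printed in places beside the others. It was counted against another gene list (18760 names in place of 32285), so no ratio to it was formed. The CNC baseline library was not analysed here.

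Each group held 1 library, so no test was possible and no difference below has a replicate check. Intervals in parentheses are exact 95% intervals of the plain ratio of CPM and cover counting error only. The CNC AngII gate held 93084002 UMIs and the SHF AngII gate 67926259. Depth per cell was alike. The median gated cell held 13416 UMIs and 3207 genes in CNC AngII, and 13360 UMIs and 3197 genes in SHF AngII. The mt- genes took a median of 5.15% and 5.41% of a cell's UMIs. The gate took 59.3% of kept barcodes in CNC AngII (58.3% to 60.2%) and 47.7% in SHF AngII (46.7% to 48.7%). These shares describe 2 sorted fractions, and their order turned in gates that also needed no UMI of further markers: 35.8% and 40.2% with 7 markers of other cell types, and 21.98% and 31.5% with the 21 macrophage and fibroblast markers used below. The libraries shared 32 barcode sequences, of which 4 lay in the gate of both.

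The gated cells carried the transcripts of smooth muscle. All 8 smooth muscle markers were present in both libraries, with a summed level of 63958 CPM in CNC AngII and 70744 CPM in SHF AngII, and the median cell held 23 and 24 Myh11 UMIs. Endothelial markers summed to 0.763 and 0.824 CPM, lymphocyte markers to 0.816 and 0.883 CPM, Schwann cell markers to 8.41 and 8.51 CPM, and erythrocyte markers to 0.0107 and 0.221 CPM. Pericyte markers, several of which smooth muscle also expresses, summed to 476 and 419 CPM, cardiomyocyte markers to 32.1 and 38.4 CPM, and mesothelial markers to 14.5 and 12.7 CPM. Single genes made up a large part of the last 2 sums, Ryr2 with 26.6 and 22.8 CPM and Krt18 with 14.2 and 6.21 CPM. Of the 10 cardiomyocyte markers 8 were higher in SHF AngII, and of the 8 mesothelial markers 7 were. Among the latter, Msln had 0 UMIs in CNC AngII and 106 in SHF AngII. Markers of macrophages and fibroblasts also differed between the gates and are given below with the genes they move with.

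Most genes stood at nearly the same level in both origins. Among 4720 genes with a mean of at least 20 CPM, which hold 94.7% of the gated UMIs of each library, the median ratio was -0.00 and the median absolute ratio 0.08 on the log2 scale. An absolute ratio of at most 0.1 was found for 59.2% of these genes, and 90% lay between the 5th percentile of -0.23 and the 95th of 0.25. A difference of at least 0.5 on the log2 scale (1.41-fold) is called past the fold from here on. By this rule 45 genes were higher in CNC AngII (0.953% of those measured) and 59 were lower (1.25%), which is 2.2% in either direction. Counts of genes past the fold in the functional lists below are to be read beside these shares. At 2.2%, a short list without such a gene is no result about its members. Only 10 of the higher genes and 16 of the lower ones differed by at least 1, a doubling. Genes past the fold occurred at every level: 53 of the 2287 genes between 20 and 50 CPM, 38 of 1725 between 50 and 200 CPM, 10 of 552 between 200 and 1000 CPM, and 3 of 156 above that. The least abundant gene within the minimum had a mean of 20.005 CPM, and the first one outside it had 19.99 CPM.

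**Figure D1:**
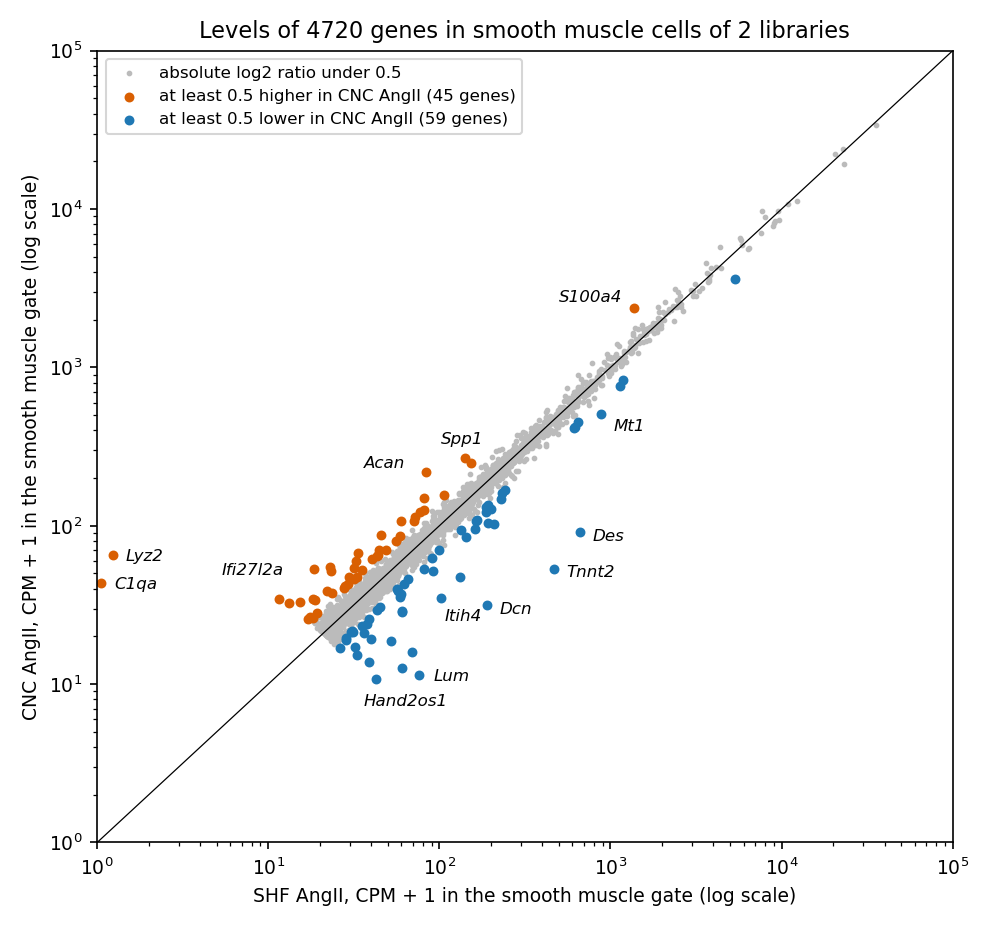
Each point is 1 of 4720 genes, with its level in SHF AngII on the x axis and in CNC AngII on the y axis (CPM + 1 in the smooth muscle gate, both axes on log scales); the line marks equal levels. Most genes lie along the line, 45 genes (orange) are at least 0.5 higher on the log2 scale in CNC AngII and 59 (blue) at least 0.5 lower, with Tnnt2 and Des farthest below the line among genes above 400 CPM in SHF AngII.

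The extreme genes fell into groups that differed in where else they are expressed. Of the 45 higher genes, 27 had their highest level in the smooth muscle gate, 11 in a macrophage gate of the same library (at least 1 UMI of Ptprc and none of Myh11, Pdgfra or Pecam1) and 7 in a fibroblast gate (at least 2 UMIs of Pdgfra and none of Myh11, Ptprc or Pecam1). Of the 59 lower genes, 22 were highest in smooth muscle, 34 in fibroblasts and 3 in macrophages. Over all 4720 genes these shares were 37.8%, 30.1% and 32.2% for smooth muscle, fibroblasts and macrophages. A level at least 5 times that of the smooth muscle gate in fibroblasts was found for 15 of the 59 lower genes (25.4%), against 1.04% of all genes. A level at least 5 times as high in macrophages was found for 8 of the 45 higher genes (17.8%), against 1.48% of all genes.

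Lyz2 and C1qa, which encode lysozyme and a chain of the complement component C1q and are made by macrophages, headed the higher genes. Lyz2 stood at 64.7 CPM in CNC AngII and 0.236 CPM in SHF AngII, and C1qa at 42.8 and 0.0589 CPM, the last resting on 4 UMIs. Their ratios were 5.73 and 5.37. In the macrophage gate of CNC AngII they stood at 10310 and 7381 CPM. The whole macrophage list moved with them: 13 of its 14 markers were higher in the smooth muscle gate of CNC AngII, and the summed level was 232 CPM against 4.77 CPM. The remaining marker, Ptprc, was at 0 in both by the gate, and Fcgr1 and Adgre1 were at 0 in SHF AngII. The macrophage gate itself held 1185 barcodes in CNC AngII (11.3% of those kept) and 16 in SHF AngII (0.169%). At 5000 UMIs per cell, Lyz2 UMIs were found in 11.3% of the gated smooth muscle cells of CNC AngII, in 0.0672% of those of SHF AngII and in 99.2% of macrophages. Without thinning the smooth muscle shares were 27.3% and 0.287%. As a stand-in for free RNA, 5% of each gate's UMIs were subtracted in the proportions of the whole library. Of the 11 higher genes with their highest level in macrophages, 4 then stayed past the fold with a mean of at least 20 CPM. The ratio itself was at least 0.5 for Ube2c (1.55), Stmn1 (1.45), Cks2 (0.94), Hacd4 (0.85), 9930111J21Rik2 (0.60) and Metrnl (0.57).

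Lum and Dcn (lumican and decorin, small proteoglycans that bind collagen fibrils), Tmem176b and Serpinf1 had the lowest ratios among the genes that fibroblasts express most. Lum stood at 75.0 CPM in SHF AngII, against 10.4 in CNC AngII (-2.74), Dcn at 190 and 30.5 CPM (-2.60), and Serpinf1 at 68.0 and 15.0 CPM (-2.11). In the fibroblast gates the same genes stood at 1379, 5877 and 984 CPM in SHF AngII and at 1103, 4834 and 974 CPM in CNC AngII. The fibroblast list summed to 2038 CPM in the smooth muscle gate of SHF AngII and 1837 CPM in that of CNC AngII, and 9 of its 12 markers were higher in SHF AngII. Pdgfra was at 0 in both by the gate. Col1a1 and Gsn, which smooth muscle also expresses, were the 2 exceptions. Col1a1 stood at 1128 CPM in SHF AngII, against 1151 in CNC AngII, and Gsn at 531 and 615 CPM. These 2 genes made up most of both sums, so the sums say little about the other markers. The fibroblast gate held 1256 barcodes in SHF AngII (13.2% of those kept) and 347 in CNC AngII (3.31%). Tmem176b, a transmembrane protein, stood at 59.5 CPM in SHF AngII, 11.7 CPM in CNC AngII and 563 CPM in the fibroblasts of SHF AngII (-2.25).

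The comparison was repeated in the 2302 cells of CNC AngII and 2992 of SHF AngII that had no UMI of any of 21 of the 26 macrophage and fibroblast markers, a gate chosen after the data had been seen. The 5 markers it did not use were Dcn, Serpinf1, Col1a1, Gsn and Cd74, so fibroblast transcripts remained in it and still differed: Dcn stood at 30.6 CPM in SHF AngII, against 5.94 in CNC AngII (-2.19), and Serpinf1 at 33.8 and 9.01 CPM (-1.80). Of the 27 higher genes with their highest level in smooth muscle, 21 stayed past the fold there with a mean of at least 20 CPM. Of the 22 lower ones, 9 did, and the median of those 22 was -0.49 in place of -0.57. Lum, Lyz2 and C1qa are among the 21 markers and are at 0 there by the gate. Leaving these out, 14 of 33 lower genes with their highest level in fibroblasts stayed past the fold with that mean, and 2 of 9 higher genes of macrophages did. A gene can leave these counts by its level alone. Of those 9, the ratio itself was at least 0.5 for Ifi27l2a (1.07), Hacd4 (0.75), Stmn1 (0.73), Metrnl (0.65), Ube2c (0.57) and 9930111J21Rik2 (0.53). Of the 101 genes past the fold that the gate does not set to 0, 14 lay farther from 0 in it with the same direction. Values from this gate are given below as values in marker-free cells, which means free of those 21 markers. What share of the differences at macrophage and fibroblast genes comes from cells, doublets or free RNA was not tested.

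**Figure D2:**
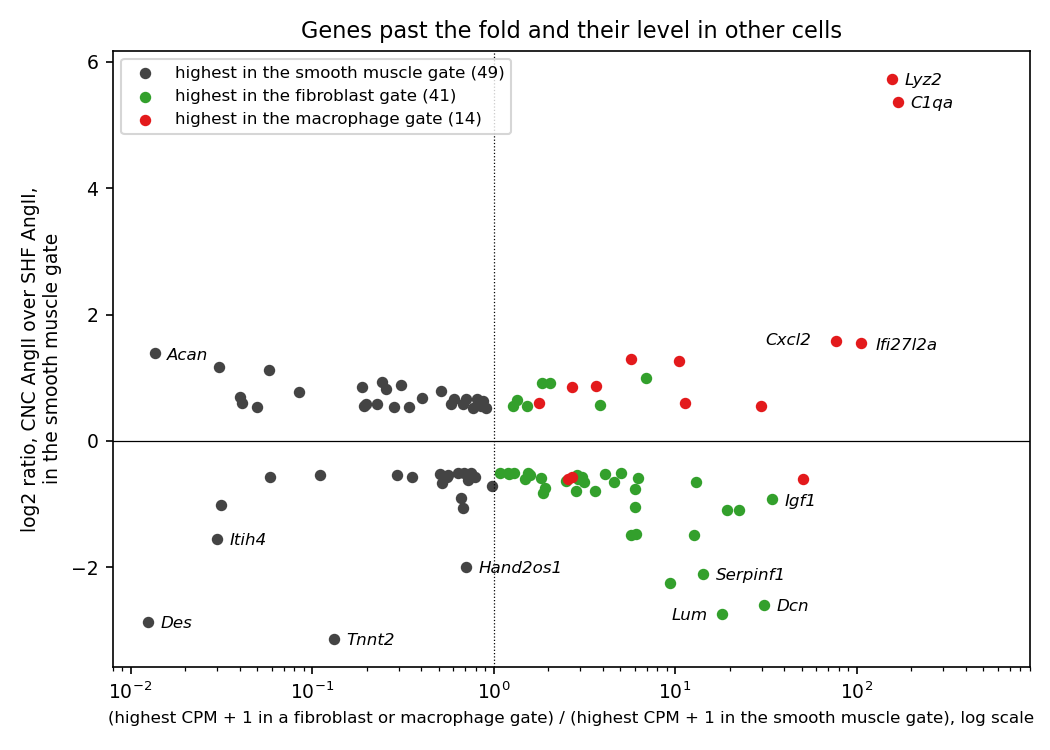
Each point is 1 of the 104 genes past the fold, with its ratio (log2, CNC AngII over SHF AngII) on the y axis and, on the x axis (log scale), its highest level in a fibroblast gate of either library or the macrophage gate of CNC AngII divided by its highest level in the smooth muscle gate (CPM + 1). The 49 genes left of the dotted line are highest in smooth muscle; Acan, Des, Tnnt2, Itih4 and Hand2os1 lie on that side, and Lyz2, C1qa, Cxcl2, Ifi27l2a, Dcn, Lum and Serpinf1 on the other.

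Tnnt2 and Des, both best known from striated muscle, were the lowest ratios of all. Tnnt2 encodes cardiac troponin T, a component of the thin filament of heart muscle, and Des encodes desmin, the muscle intermediate filament. The sequences of the 250 bases before the start of each gene are shown with that of Acan, the highest ratio among smooth muscle genes, since Tnnt2 and Des had the lowest ratios of all genes measured. They are from RefSeq on GRCm38.p6, lie on the plus strand at chr1:135836084-135836333 (Tnnt2, before the first of its 2 listed starts), chr1:75360042-75360291 (Des) and chr7:79052976-79053225 (Acan), and are written 5' to 3' with motif matches in capitals.
Tnnt2: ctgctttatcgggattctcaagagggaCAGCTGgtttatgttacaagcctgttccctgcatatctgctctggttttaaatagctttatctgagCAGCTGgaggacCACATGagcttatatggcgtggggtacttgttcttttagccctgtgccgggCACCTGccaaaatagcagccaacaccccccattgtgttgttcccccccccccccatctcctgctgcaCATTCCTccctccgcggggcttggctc
Des: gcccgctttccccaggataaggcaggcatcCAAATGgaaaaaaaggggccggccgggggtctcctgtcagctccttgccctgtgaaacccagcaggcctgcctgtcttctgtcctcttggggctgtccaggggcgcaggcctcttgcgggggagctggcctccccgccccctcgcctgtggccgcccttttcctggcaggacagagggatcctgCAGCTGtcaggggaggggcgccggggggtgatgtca
Acan: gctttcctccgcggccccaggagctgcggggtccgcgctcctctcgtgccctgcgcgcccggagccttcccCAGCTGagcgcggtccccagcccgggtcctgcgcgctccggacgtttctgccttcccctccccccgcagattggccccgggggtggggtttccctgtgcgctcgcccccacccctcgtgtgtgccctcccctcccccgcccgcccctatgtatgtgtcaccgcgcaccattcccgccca
A set of 3 motifs of muscle promoters was searched on both strands: the E-box (CANNTG), the M-CAT element (CATTCCT) and the CArG box. The Tnnt2 window held 4 E-boxes and 1 M-CAT element, at -27 to -21 from the start. The Des window held 2 E-boxes and the Acan window 1, and no CArG box was found in these letters. Of 32851 promoters of the same length, 66.2% held an E-box, 4.51% an M-CAT element and 1.47% a CArG box. These matches describe the letters and show nothing about binding.

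Tnnt2 stood at 466 CPM in SHF AngII, against 52.2 in CNC AngII, a ratio of -3.13 (-3.20 to -3.12). Des stood at 661 and 90.0 CPM, a ratio of -2.86 (-2.91 to -2.84). Both were nearly absent from macrophages (0.989 and 0.495 CPM in CNC AngII), and in SHF AngII fibroblasts they stood at 60.9 and 7.23 CPM. The lower sum came from fewer cells with a UMI and from fewer UMIs in those cells. Thinned to 5000 UMIs per cell, 13.3% of cells had a Tnnt2 UMI in CNC AngII and 43.4% in SHF AngII, against 0.437% of macrophages. For Des the shares were 12.1%, 44.1% and 0.349%. Without thinning they were 21.8% and 57.3% for Tnnt2 and 17.9% and 50.5% for Des, at median depths of 13416 and 13360 UMIs per smooth muscle cell and 11324 UMIs per macrophage. Cells with a Des UMI held a mean of 7.56 of them in CNC AngII and 19.7 in SHF AngII. In marker-free cells the ratios were -2.90 for Tnnt2 and -2.81 for Des. At baseline the SHF library stood at 754 CPM of Tnnt2 and 537 CPM of Des.

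The other striated muscle genes that reached the minimum of 20 CPM were not past the fold. Of the 54 genes on the list, 16 reached the minimum, and apart from Tnnt2 and Des none was past the fold in either direction. Members under the minimum, several of them lower in CNC AngII, are given at the end. The list median was -0.04, near the -0.00 of all genes. The abundant members were level: Cryab, a small heat shock protein of muscle, stood at 933 CPM in SHF AngII, against 960 in CNC AngII (0.04), Hspb7 at 696 and 678 CPM (-0.04), and Nexn, an actin-binding protein of the Z-disc, at 378 and 370 CPM (-0.03). The highest ratio of the list was that of Myl4, an atrial myosin light chain, at 31.8 and 39.1 CPM (0.29).

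The contractile genes of smooth muscle differed by less than the fold. Of 37 listed, 35 reached the minimum and none was past the fold, against 2.2% of all genes. Their median absolute ratio was 0.13, against 0.08 over all genes. Acta2, the smooth muscle actin, stood at 35773 CPM in SHF AngII, against 33909 in CNC AngII (-0.08). Tagln (transgelin) stood at 23251 and 19243 CPM (-0.27), Myl6, an essential myosin light chain, at 9611 and 8551 CPM (-0.17), and Tpm2, a tropomyosin, at 8959 and 7790 CPM (-0.20). The list ran from -0.41 at Synpo2 to 0.41 at Susd5, with 23 genes below 0 and 12 above, and its median of -0.08 stayed below 0 in each of the 16 alternative settings, between -0.10 and -0.02. The transcription factors and cofactors that drive this programme, Myocd among them, were also under it: none of 15 was past the fold, the median was 0.05, and Myocd itself stood at 64.1 CPM in SHF AngII, against 68.5 in CNC AngII (0.09).

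Acan and Itih4 were the extreme extracellular genes that smooth muscle itself expresses. Acan encodes aggrecan, the large chondroitin sulphate proteoglycan of cartilage and arterial matrix. It stood at 82.8 CPM in SHF AngII, against 218 in CNC AngII, a ratio of 1.39 (1.36 to 1.44), with at most 1.98 CPM in the fibroblast gates and 21.0 CPM in SHF at baseline. At 5000 UMIs per cell, 47.9% of CNC AngII cells and 22.3% of SHF AngII cells had an Acan UMI, against 0.524% of macrophages, and without thinning the shares were 65.8% and 37.8%. In marker-free cells the ratio was 1.25. Itih4, an inter-alpha-trypsin inhibitor heavy chain that belongs to a family of hyaluronan-associated proteins, stood at 101 CPM in SHF AngII, against 33.97 in CNC AngII, a ratio of -1.54 (-1.63 to -1.51), and at -1.11 in marker-free cells. It was found in 14.3% of thinned CNC AngII cells, 28.9% of SHF AngII cells and 0.437% of macrophages.

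Most other proteoglycan genes measured lay below 0. Of 34 genes on the list 13 reached the minimum, 9 of them below 0, and the median was -0.28. Past the fold, Acan was higher and 3 genes were lower. Of the 3 lower genes, Lum and Dcn are fibroblast genes described above, and Adamts5, an aggrecan-cleaving protease, stood at 37.6 CPM in SHF AngII, 24.7 CPM in CNC AngII and 240 CPM in SHF AngII fibroblasts (-0.59). The median was nearer 0, at -0.09, in marker-free cells. Bgn (biglycan), the most abundant member, was level at 3746 and 3604 CPM (-0.06), and Cspg4, a membrane proteoglycan, stood at 293 and 373 CPM (0.35).

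The elastic fibre genes split. Eln, which encodes elastin, stood at 4364 CPM in SHF AngII, against 5784 in CNC AngII (0.41), and Fbn1, the fibrillin of its microfibrils, at 187 and 235 CPM (0.33), both higher in CNC AngII but short of the fold. The 4 genes lower past the fold were Fbln5 and Ltbp4, which assist elastic fibre assembly, Mfap4, a microfibril-associated protein, and Loxl2, a matrix cross-linking enzyme. Fbln5 stood at 644 CPM in SHF AngII, against 454 in CNC AngII (-0.50), Mfap4 at 1189 and 831 CPM (-0.52), Ltbp4 at 133 and 92.9 CPM (-0.51) and Loxl2 at 57.6 and 34.6 CPM (-0.72). Fbln5, Mfap4 and Ltbp4 had higher levels in fibroblasts (852, 1451 and 173 CPM in SHF AngII) and did not pass the fold in marker-free cells (-0.34, -0.35 and -0.32), where Loxl2 stood at -0.90. Loxl3, a related cross-linking enzyme, was higher in CNC AngII, at 26.9 and 40.4 CPM (0.57, and 0.45 in marker-free cells). Over the 16 genes of the list that reached the minimum the median was -0.00.

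Among collagens and their processing enzymes, 21 genes reached the minimum, none was higher past the fold and 2 were lower. Col1a2 stood at 1932 CPM in SHF AngII, against 2224 in CNC AngII (0.20), Col1a1 at 1128 and 1151 CPM (0.03), and Col3a1 at 1453 and 1234 CPM (-0.24). The lower genes were Col14a1, a fibril-associated collagen, at 51.1 and 17.6 CPM (-1.49), and Pcolce, the enhancer of procollagen cleavage, at 59.7 and 27.6 CPM (-1.09). Both are fibroblast genes by level, at 658 and 1167 CPM in SHF AngII fibroblasts, and their ratios were -1.07 and -0.68 in marker-free cells. The list median was 0.03.

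Basement membrane genes leaned the other way, with 12 of 16 above 0 and a median of 0.20, which stayed above 0 in all 16 alternative settings (0.08 to 0.22). Npnt, nephronectin, an integrin ligand of basement membranes, stood at 642 CPM in SHF AngII, against 896 in CNC AngII (0.48), Hspg2 (perlecan) at 382 and 463 CPM (0.28), and Col18a1 at 1353 and 1610 CPM (0.25). Smoc2, a calcium-binding basement membrane protein, was past the fold at 32.6 and 66.2 CPM (1.0), and Col4a6, a chain of type IV collagen, was lower at 58.5 and 36.3 CPM (-0.67, and -0.47 in marker-free cells). The abundant type IV chain Col4a1 was level at 519 and 510 CPM (-0.03). Integrins and adhesion genes had a median of 0.10 over 32 genes, above 0 in every alternative, and 1 was past the fold: Itga3, a laminin-binding integrin subunit, at 54.5 and 79.3 CPM (0.53, and 0.40 in marker-free cells).

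**Figure D3:**
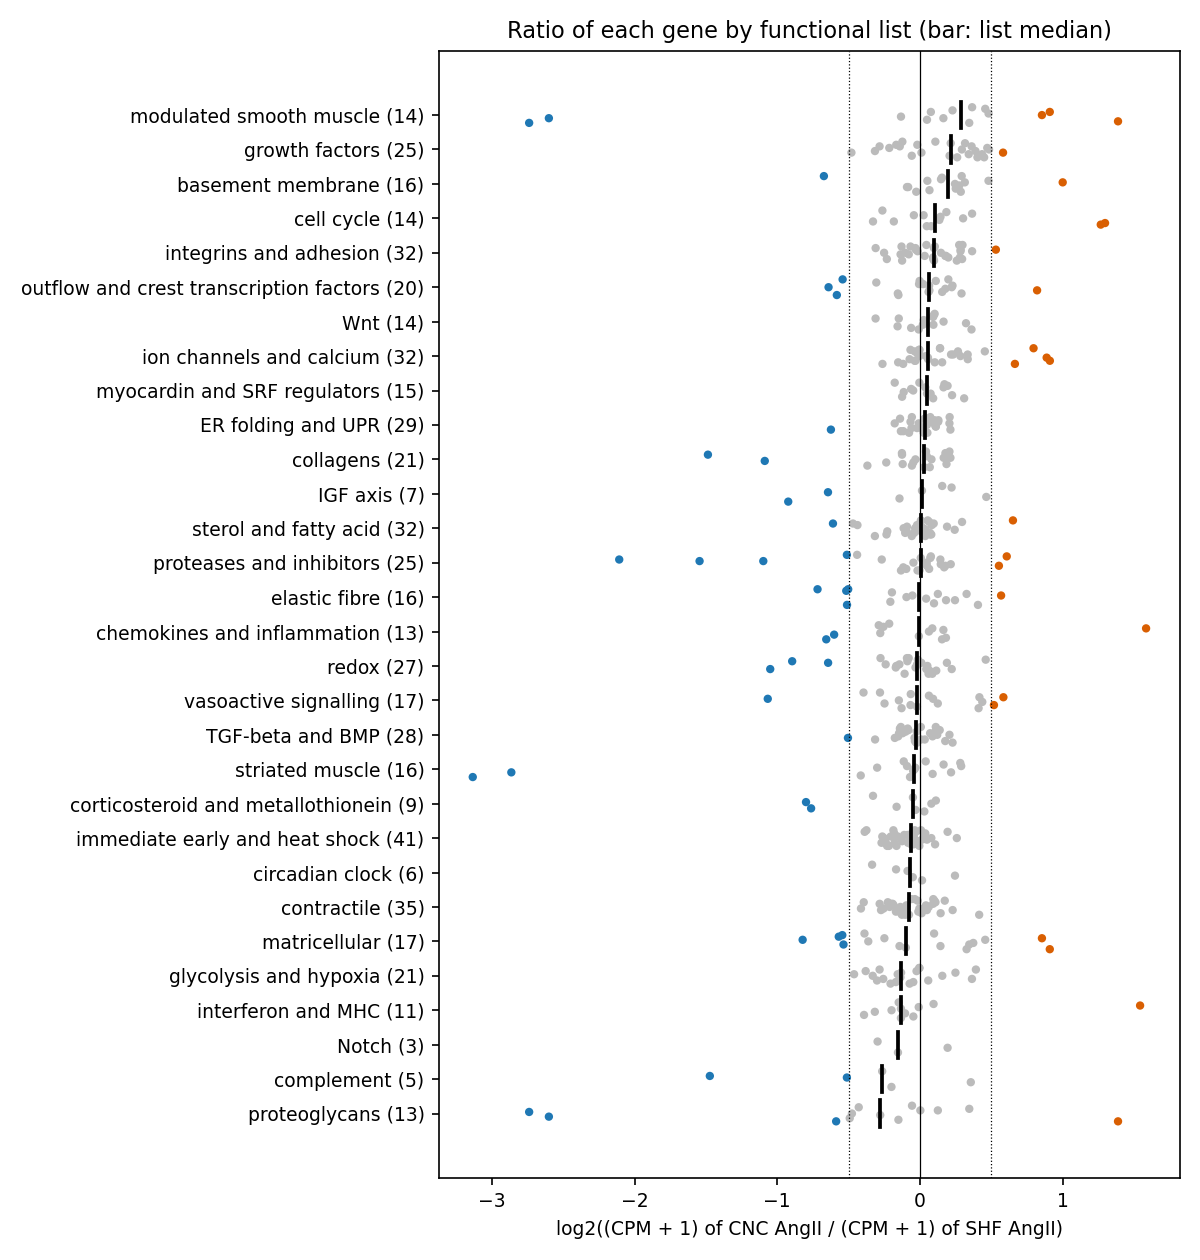
Each row is 1 functional list (number of genes with a mean of at least 20 CPM in parentheses) and each point 1 gene's log2 ratio of CNC AngII over SHF AngII in the smooth muscle gate; black bars are list medians, dotted lines mark 0.5 and -0.5, and vertical offsets within a row only separate points. Orange points are past the fold and higher in CNC AngII, blue points past it and lower; list medians lie between -0.28 (proteoglycans) and 0.29 (modulated smooth muscle), and the contractile, Notch, Wnt, myocardin and SRF, immediate early, glycolysis and circadian lists hold no gene past the fold.

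Matricellular proteins, secreted modulators of adhesion, held 2 higher and 4 lower genes among 17. Tnc (tenascin C) stood at 58.5 CPM in SHF AngII, against 107 in CNC AngII, a ratio of 0.85 (0.81 to 0.92), with at most 19.2 CPM in the fibroblast gates and 8.49 CPM in SHF at baseline. It was found in 32.7% of thinned CNC AngII cells and 18.1% of SHF AngII cells, against 1.40% of macrophages, and in 59.9% and 36.8% without thinning. Spp1 (osteopontin) stood at 141 and 266 CPM (0.91), but its UMIs sat in few cells: the 5% of cells with the most held 97.4% of them in SHF AngII and 88.6% in CNC AngII. Its ratio was 2.21 among gated cells of 5000 to 20000 UMIs and 0.65 with at least 20 Myh11 UMIs, and its highest level was in the fibroblasts of CNC AngII (490 CPM). Spp1 stood at 0.366 CPM in SHF at baseline. Fn1 (fibronectin) stood at 775 and 1065 CPM (0.46) and Mgp (matrix Gla protein, an inhibitor of calcification) at 7677 and 9753 CPM (0.35), both under the fold.

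The lower matricellular genes were Ccn3, Crispld2, Sparcl1 and Thbs1. Ccn3, a member of the CCN family, stood at 1136 CPM in SHF AngII, against 765 in CNC AngII (-0.57, and -0.45 in marker-free cells). Sparcl1 stood at 233 and 159 CPM (-0.54, and -0.44 in marker-free cells). Ccn3 and Sparcl1 had lower levels in fibroblasts (328 and 18.4 CPM in SHF AngII). Thbs1 (thrombospondin 1) stood at 89.8 and 61.6 CPM (-0.54, and -0.89 in marker-free cells), and Crispld2 at 91.2 and 51.1 CPM (-0.82). Thbs1 and Crispld2 had higher levels in fibroblasts (263 and 171 CPM in SHF AngII). The 5% of smooth muscle cells with the most Thbs1 held 66.1% of its UMIs in SHF AngII and 71.3% in CNC AngII. Ccn2 and Ccn1, the other abundant CCN genes and targets of mechanical and TGF-beta signals, stood at 3028 and 2827 CPM (-0.10) and at 747 and 581 CPM (-0.36). The list median was -0.10.

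Matrix proteases and their inhibitors had a median of 0.01 over 25 genes, with 2 higher and 4 lower. Mmp17, a membrane-anchored metalloprotease, stood at 39.5 CPM in SHF AngII, against 60.8 in CNC AngII (0.61) and at most 1.44 CPM in fibroblasts. Serpinb6b, an intracellular serpin, stood at 106 and 156 CPM (0.55), with 79.8 CPM in SHF AngII fibroblasts and 238 CPM in those of CNC AngII. Besides Itih4 and Serpinf1, the lower genes were Mmp3 (stromelysin 1), at 31.9 and 14.4 CPM with 738 CPM in SHF AngII fibroblasts (-1.10), and Serping1, the C1 inhibitor, at 240 and 168 CPM with 1218 CPM in those fibroblasts (-0.51). In marker-free cells Mmp3 had the other direction (0.46) and Serping1 stood at -0.24. Cst3, Timp2 and Ctsl, which are among the abundant members, lay at -0.12, 0.14 and 0.05.

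**Figure D4:**
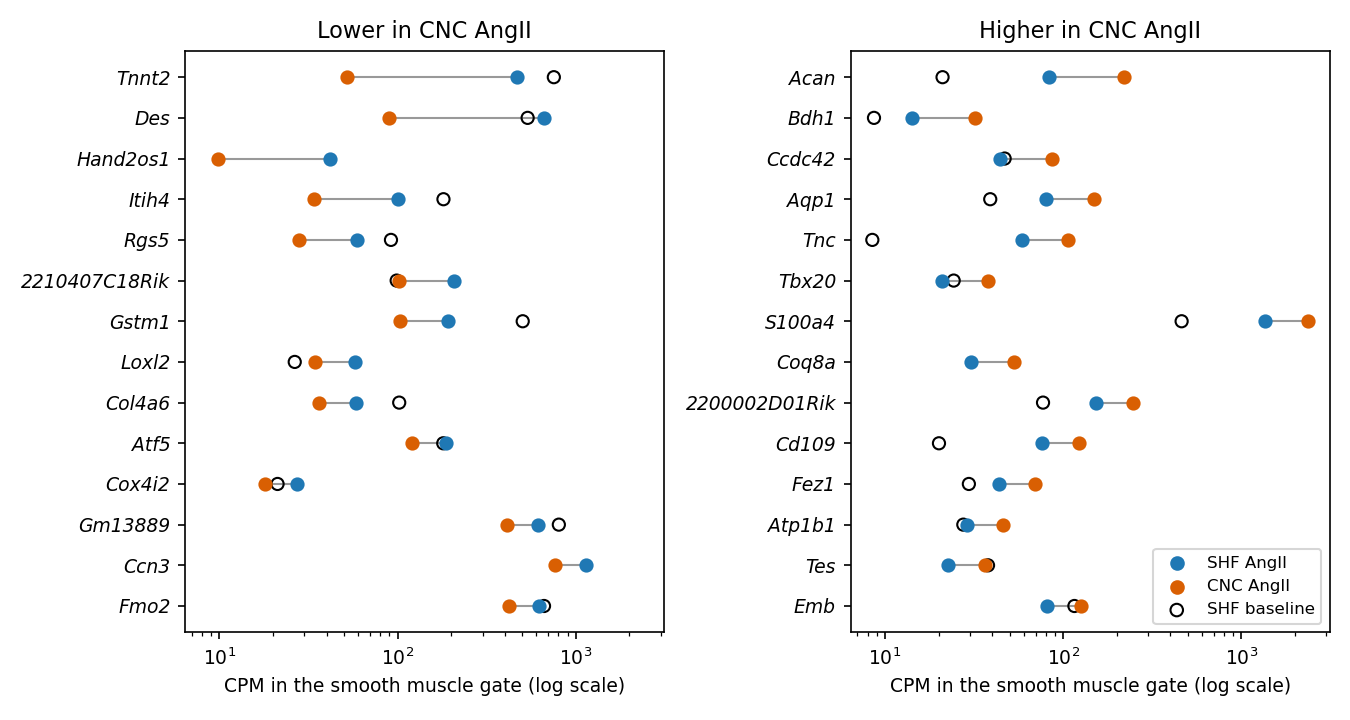
Levels (CPM, log scale) in the smooth muscle gates of SHF AngII (blue), CNC AngII (orange) and SHF baseline (open circles, other gene list) for the 14 lowest and 14 highest ratios reported here among genes whose highest level is in smooth muscle; each point is 1 library and grey lines join the 2 libraries compared. Tnnt2 and Des show the widest gaps on the left and Acan on the right; Hand2os1, Ccn3 and Coq8a have no open circle because the baseline list does not hold those names.

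Transcription factors of the second heart field, outflow tract and neural crest had a median of 0.06 over the 20 that reached the minimum, with 1 higher and 3 lower. Tbx20, a T-box factor of heart development, stood at 21.0 CPM in SHF AngII, against 37.9 in CNC AngII, a ratio of 0.82 (0.76 to 0.94), and at 0.72 in marker-free cells. Nr2f2, an orphan nuclear receptor (25.4 and 15.9 CPM, -0.64), Meis2, a homeobox factor (56.7 and 37.5 CPM, -0.58), and Twist1, a basic helix-loop-helix factor of mesenchyme (43.7 and 29.7 CPM, -0.54), were lower. Nr2f2 and Meis2 stood at -0.46 and -0.48 in marker-free cells, and Twist1 at -0.53. All 3 had higher levels in fibroblasts (64.9, 104 and 69.7 CPM in SHF AngII). Foxp1, Mef2a, Mef2c and Gata6, the most abundant of the list, lay between -0.15 and 0.29. Mef2c, which is part of the strain's name, stood at 111 and 116 CPM (0.06).

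Hand2os1, a long non-coding RNA transcribed beside Hand2, was among the lowest ratios of genes that smooth muscle expresses most. It stood at 41.8 CPM in SHF AngII, against 9.75 in CNC AngII, a ratio of -1.99 (-2.21 to -1.99), and at -1.85 in marker-free cells. Its share of thinned cells was 20.3% in SHF AngII, 5.19% in CNC AngII and 0.349% in macrophages, and 42.4% and 12.8% of smooth muscle cells without thinning. Hand2 itself was level at 86.0 and 85.6 CPM (-0.01). Exons of Hand2os1 overlap another gene on the same strand in the GENCODE M21 annotation, so that reads could be split between them, and the same holds for Loxl2, Pcolce, Spp1 and Stmn1.

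Signalling pathways of the vessel wall showed small differences. Of 28 TGF-beta and BMP genes none was higher past the fold and 1 was lower, against 2.2% of all genes in either direction. It was Bambi, a BMP and activin pseudoreceptor, at 55.3 CPM in SHF AngII, against 38.7 in CNC AngII (-0.50, and -0.33 in marker-free cells). The ligands Tgfb1, Tgfb2 and Tgfb3 lay at 0.23, -0.10 and -0.18 and the receptors Tgfbr1 and Tgfbr2 at 0.11 and -0.15. The targets Id1, Id2 and Id3 lay at -0.04, -0.08 and -0.15. The list median was -0.03. Only 3 of 21 Notch genes reached the minimum (Hes1 -0.15, Heyl -0.30, Rbpj 0.19), and none of 14 Wnt genes was past the fold (median 0.06). Wnt16, a ligand under 1 CPM in the fibroblasts and macrophages, had the highest ratio of that list, at 46.9 and 60.5 CPM (0.36).

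Growth factors, guidance cues and their receptors leaned higher in CNC AngII, with a median of 0.22 over 25 genes and 16 of them above 0. The median was above 0 in 15 of 16 alternatives. The exception was -0.01 without a gene minimum, where more genes of the list are counted. Bdnf, a neurotrophin, was past the fold at 70.2 CPM in SHF AngII, against 106 in CNC AngII, a ratio of 0.58 (0.54 to 0.64), and stood at 0.45 in marker-free cells. Just under the fold were the fibroblast growth factor genes Fgf1 (32.3 and 45.2 CPM, 0.47) and Fgf2 (68.4 and 92.9 CPM, 0.44), the receptor Fgfr2 (31.1 and 43.9 CPM, 0.48) and Hbegf, a heparin-binding EGF-family ligand (184 and 242 CPM, 0.39). Pth1r, the parathyroid hormone receptor, had the lowest ratio of the list at 30.3 and 21.4 CPM (-0.48). In the insulin-like growth factor axis (7 genes, median 0.01), Igf1 and Igfbp4 were lower, at 31.3 and 16.0 CPM (-0.92) and 228 and 146 CPM (-0.64). Both are fibroblast genes by level, at 1057 and 3008 CPM in SHF AngII fibroblasts, and Igfbp4 stood at -0.42 in marker-free cells. With 5% of free RNA subtracted Igf1 stood at -0.02. Igfbp2, an abundant smooth muscle member, stood at 1312 and 1461 CPM (0.16).

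Genes of vasoactive signalling had a median of -0.02 over 17. The angiotensin receptor genes Agtr1a and Agtr1b were under the minimum, Agtr1a at 1.43 CPM in SHF AngII, against 1.39 in CNC AngII and Agtr1b at 0.0589 and 0.0752 CPM. Npr1, the receptor for atrial natriuretic peptide, was higher in CNC AngII at 42.1 and 63.7 CPM, a ratio of 0.58 (0.53 to 0.66), and 0.56 in marker-free cells. Rgs7bp, which anchors RGS proteins at the membrane, stood at 17.2 and 25.0 CPM (0.52, but 0.46 in marker-free cells and 0.38 with cells thinned to 5000 UMIs). Rgs5, a regulator of G-protein signalling that is also a pericyte marker, was lower at 59.3 and 27.8 CPM (-1.07, and -0.80 in marker-free cells). Of the 8 pericyte markers 5 were lower in CNC AngII, among them Cox4i2, a subunit of cytochrome c oxidase (27.3 and 18.1 CPM, -0.57), and 3 were higher, among them Abcc9 and Cspg4. The part of pericytes in these values was not tested. The soluble guanylate cyclase subunits Gucy1a1 and Gucy1b1, receptors of nitric oxide, stood at 120 and 100.4 CPM (-0.25) and at 127 and 105 CPM (-0.28).

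Ion channels, transporters and calcium-binding proteins held 4 higher genes and no lower one among 32, with a median of 0.06 that was above 0 in all 16 alternatives. S100a4, a calcium-binding protein of motile cells, was the most abundant gene past the fold on the higher side, at 1364 CPM in SHF AngII, against 2368 in CNC AngII, a ratio of 0.80 (0.79 to 0.81), against 463 CPM in SHF at baseline. It stood at 0.75 in marker-free cells. S100a4 shares exon sequence with another annotated gene on its strand. Aqp1, a water channel, stood at 80.4 and 150 CPM (0.89, and 0.73 in marker-free cells). Abcc9, the sulphonylurea receptor subunit of vascular potassium channels, stood at 17.3 and 33.3 CPM (0.91), and Atp1b1, the beta subunit of the sodium pump, at 28.7 and 46.2 CPM (0.67). Abcc9 was also present in fibroblasts, at 69.6 CPM in SHF AngII.

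Higher genes of smooth muscle included metabolic enzymes. Bdh1, a mitochondrial enzyme of ketone body metabolism, stood at 14.2 CPM in SHF AngII, against 32.0 in CNC AngII (1.12), and Coq8a, an atypical kinase of coenzyme Q synthesis, at 30.5 and 53.2 CPM (0.78). In marker-free cells they stood at 1.06 and 0.71. Others of the 30 highest ratios with their peak in smooth muscle were Ccdc42 (44.5 and 86.2 CPM, 0.94), 2200002D01Rik (153 and 247 CPM, 0.69), Cd109 (75.8 and 122 CPM, 0.68), Fez1 (43.5 and 69.7 CPM, 0.67), Tes (22.6 and 36.4 CPM, 0.66) and Emb (80.8 and 126 CPM, 0.63). Of these, Cd109 encodes a membrane co-receptor that binds TGF-beta, and Tes a focal adhesion protein.

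Both metallothioneins and 3 detoxifying enzymes were lower in CNC AngII. Mt1 and Mt2, small metal-binding proteins, stood at 880 CPM in SHF AngII, against 506 in CNC AngII (-0.80) and at 160 and 93.8 CPM (-0.76). Both were higher in fibroblasts (3211 and 971 CPM in SHF AngII) and stood at -0.66 and -0.64 in marker-free cells. The other genes of their list, glucocorticoid targets, lay between -0.33 and 0.11, and the median over 9 genes was -0.05. Among 27 redox genes 3 were lower past the fold and none higher (median -0.02): Gstm1, a glutathione transferase, at 192 and 103 CPM (-0.90), Mgst1 at 39.1 and 18.4 CPM (-1.05) and Gstt1 at 36.6 and 23.04 CPM (-0.64). Gstm1 was the one with its highest level in smooth muscle, and stood at -0.61 in marker-free cells. Mgst1 and Gstt1 had higher levels in fibroblasts (240 and 118 CPM in SHF AngII). Gstt1 was under the fold in marker-free cells, at -0.38, and Mgst1 lay between -1.16 and -0.79 over the 16 alternatives. The abundant antioxidant genes Gpx1, Prdx1 and Txn1 lay at -0.01, -0.09 and -0.09. Fth1, the ferritin heavy chain, a gene on none of the lists, was the most abundant gene past the fold, at 5347 and 3618 CPM (-0.56, and -0.42 in marker-free cells).

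Differences in energy and lipid metabolism were mostly under the fold. Of 21 glycolysis and hypoxia genes none was past the fold, against 2.2% of all genes. Their median absolute ratio was 0.17, against 0.08 over all genes. Of the 21 genes 16 were below 0, and the median of -0.13 stayed below 0 in all 16 alternatives (-0.15 to -0.10). Gapdh stood at 1872 CPM in SHF AngII, against 1664 in CNC AngII (-0.17), Aldoa at 741 and 609 CPM (-0.28), and Ldha at 472 and 395 CPM (-0.26), while Hif1a, the hypoxia-inducible factor, stood at 106 and 139 CPM (0.39). Sterol and fatty acid genes had a median of 0.01 over 32. Fabp4, a fatty acid binding protein, was higher at 71.1 and 112 CPM (0.65). In CNC AngII 1 gated cell held 1111 of its 10455 UMIs, and its ratio was under the fold among cells of 5000 to 20000 UMIs (0.41). The highest level of Fabp4 was in the fibroblasts of CNC AngII (152 CPM). Apoe, an apolipoprotein of macrophages and fibroblasts, was lower at 162 and 106 CPM (-0.61). Apoe stood at 8295 CPM in CNC AngII macrophages, at -2.17 with 5% of free RNA subtracted and at -0.14 when the gate needed only 1 Myh11 UMI. Ribosomal protein genes had a median of 0.05 over 82 genes and mt- genes of -0.10 over 12, with none past the fold. In the endoplasmic reticulum list (29 genes, median 0.03) the stress-induced factor Atf5 was lower, at 186 and 120 CPM (-0.62, and -0.49 in marker-free cells), and the chaperones Hspa5 and Hsp90b1 lay at -0.08 and 0.13.

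Inflammatory genes past the fold were those of other cell types by level. Cxcl2, a neutrophil-attracting chemokine, stood at 10.5 CPM in SHF AngII, against 33.6 in CNC AngII (1.58), with 2655 CPM in macrophages, and Ifi27l2a, an interferon-induced gene, at 17.4 and 52.6 CPM (1.54), with 5641 CPM in macrophages. In marker-free cells they stood at 0.44 and 1.07, and with 5% of free RNA subtracted Ifi27l2a stood at -0.85. Cxcl12 (165 and 108 CPM, -0.60) and Cebpd, an acute-phase transcription factor (201 and 127 CPM, -0.66), were lower in CNC AngII, with higher levels in fibroblasts. In marker-free cells Cebpd stood nearer 0, at -0.39, and Cxcl12 farther from it, at -0.89. The interferon and antigen presentation list had 9 of 11 genes below 0 and a median of -0.13, with Ifitm3 at 495 and 377 CPM (-0.39) and B2m at 316 and 294 CPM (-0.10). The medians of the chemokine list (13 genes) and the complement list (5 genes) were -0.01 and -0.27.

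Immediate early genes and heat shock chaperones, which also respond to tissue digestion, showed no gene past the fold among 41, against 2.2% of all genes. Their median was -0.06, with 32 below 0, and their median absolute ratio was 0.09, against 0.08 over all genes. Fos stood at 2656 CPM in SHF AngII, against 2283 in CNC AngII (-0.22), Hspa8 at 1676 and 1495 CPM (-0.16) and Hsp90ab1 at 1233 and 1245 CPM (0.01). Cell cycle genes held 2 higher genes among 14 (median 0.11). Ube2c, a ubiquitin-conjugating enzyme of mitosis, stood at 12.3 and 31.6 CPM (1.30) and Stmn1, a microtubule-destabilising protein, at 21.8 and 54.0 CPM (1.27), with Cks2, a further mitotic gene among the 30 highest, at 17.7 and 32.9 CPM (0.86). Ube2c UMIs were found in 2.06% of SHF AngII and 3.93% of CNC AngII cells without thinning, and in 0.940% and 2.15% with it, against 22.97% of macrophages. All 3 had their highest level in macrophages (185, 574 and 90.8 CPM in CNC AngII). In SHF AngII fibroblasts they stood at 151, 228 and 89.9 CPM. In marker-free cells their ratios were 0.57, 0.73 and 0.33, and among cells of 5000 to 20000 UMIs they were 0.45, 0.70 and 0.26. With 5% of free RNA subtracted the ratios were farther from 0, at 1.55, 1.45 and 0.94.

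Genes reported for smooth muscle cells that leave the contractile state had the highest list median, 0.29 over 14 genes, with 11 above 0, and it was above 0 in all 16 alternatives (0.08 to 0.46). Acan, Spp1 and Tnc were higher past the fold and Lum and Dcn lower. Klf4, a transcription factor tied to that change of state, stood at 146 CPM in SHF AngII, against 151 in CNC AngII (0.05), and Timp1 at 290 and 264 CPM (-0.13). This list was written with the ratios of Acan, Spp1, Tnc, Lum and Dcn known, so its median is no independent evidence of a direction.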

How the data were processed

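The values are UMI counts per gene and barcode, deposited by the authors as 1 table per library, per the file headers. The submitters' processing notes name fastp, STAR 2.5, HTSeq 0.6.1 and the build mm10, with no role or order; the gene annotation of the counts is not given in the sources used here. Each group is 1 library. Barcodes were filtered and gated as the report says, UMIs summed per library, and CPM computed over all genes (Python 3.11.15, numpy 2.4.6, pandas 2.3.3). Ratios add a pseudocount of 1 CPM and cover genes with a mean of at least 20 CPM. Intervals are exact Clopper-Pearson intervals (scipy 1.17.1) of the share of a gene's UMIs, turned into a ratio of CPM, and reads of 1 cell are not independent samples. No barcode was removed as a doublet in the values reported. Scrublet in scanpy 1.11.5 marked 279 barcodes in CNC AngII (2.61%) and 192 in SHF AngII (1.96%), of which 85 and 56 were in the gate, and leaving them out was an alternative. Thinned shares drew 5000 UMIs per cell and left out 77 and 56 shallower cells. The other alternatives were another pseudocount or gene minimum, TMM scaling (edgeR 4.0.16 in R 4.3.3), other totals, weights, depth, gates and cell filters, and subtraction of free RNA. The calculation was tested on simulated data. No column of another series was present (0). Exon overlaps are from GENCODE M21.

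The members and the 30 gene lists were chosen with earlier results of these data known. The genes named were the 30 highest and 30 lowest ratios, any list gene past the fold and up to 4 of the most abundant genes of each list. Fth1, Hand2, Ccn1, Wnt16, Pth1r, Hif1a and the other list genes outside that rule were chosen after their values were seen. A few genes that this rule names are not reported here.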

Additional observations from a re-analysis of the deposited data

Results flagged for a closer look

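For 3 genes past the fold in smooth muscle, the ratio in the fibroblast gates of the same 2 libraries had the other sign and a size of at least 0.5. Smoc2 had a ratio of 1.0 in smooth muscle (32.6 CPM in SHF AngII, 66.2 in CNC AngII) and of -0.91 in fibroblasts (467 and 248 CPM). Rgs7bp stood at 0.52 in smooth muscle (17.2 and 25.0 CPM) and at -0.56 in fibroblasts (3.09 and 1.78 CPM), but the fibroblast value rests on 71 and 9 UMIs and its counting interval, -1.98 to 0.21, holds 0. Its smooth muscle ratio was also under the fold with thinning (0.38) and with a pseudocount of 10 CPM (0.37). The gene 2210407C18Rik stood at -1.02 in smooth muscle (207 and 101 CPM) and at 1.81 in fibroblasts, where its levels were 0.872 and 5.55 CPM (20 and 28 UMIs). Among genes past the fold with their highest level in smooth muscle, the same direction in the fibroblast gates was more common. It was found for 20 of the 27 higher genes and 17 of the 22 lower ones, whatever the size of the fibroblast ratio. The same share over all genes is not given here. Each gate is 1 library per origin and both gates come from the same libraries, so the differences were not tested.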

How the results depend on the processing

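No paired analysis was possible because each group holds 1 library. The median absolute ratio of 0.0819 was 0.0689 with a pseudocount of 10 CPM, 0.0686 without a gene minimum, 0.0801 with a minimum of 50 CPM, 0.0818 with TMM scaling, 0.0823 without mt- and ribosomal protein genes in the totals, 0.0811 from per-cell shares, 0.0905 with cells thinned to 5000 UMIs and 0.0898 in cells of 5000 to 20000 UMIs. By gate and filter it was 0.0807 with at least 1 Myh11 UMI, 0.0792 with at least 20, 0.0769 with no UMI of 7 further markers, 0.0816 and 0.0841 with the looser (200 genes, 20% mt-) and stricter (1000 genes, 5% mt-) filter, 0.0823 without Scrublet-marked barcodes, 0.0834 with 5% free RNA subtracted and 0.0706 in marker-free cells (no UMI of 21 markers), the alternative chosen after seeing the data. The 45 higher and 59 lower genes became 461 and 371 without a minimum, which tests 19607 genes, and 19 and 32 with a minimum of 50 CPM, which tests 2433. The lower genes numbered 37 with a pseudocount of 10 and 26 in marker-free cells, where the cause was not tested. The gate's share of kept barcodes in CNC AngII and SHF AngII was 61.8% and 50.1% with at least 1 Myh11 UMI, 37.0% and 29.96% with at least 20, 35.8% and 40.2% with no UMI of the 7 markers, 44.1% and 27.3% with the stricter filter, and 21.98% and 31.5% in marker-free cells, each by the gate's own construction, so that the order of the 2 libraries turned in the gates without the 7 and the 21 markers. Of 1664 values of the 104 genes past the fold under the 16 alternatives, 2 had the other direction: Mmp3 at 0.46 in marker-free cells and Ifi27l2a at -0.85 with 5% free RNA subtracted, and the cause was not tested. TMM scaling moved no gene across the fold. The genes measured held at least 3148 UMIs each over both libraries, and every ratio is limited by the single library per group.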

Other observations

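Under the minimum of 20 CPM lie transcription factors of heart and outflow tract development, which the ratios above leave out. In the list of second heart field, outflow tract and neural crest factors, 40 genes had a mean between 0.25 and 20 CPM, a range set after the values were seen. The counting interval of the plain ratio lay below 0 for 20 of them and above 0 for 9, and beyond a doubling for 10 (25%) and 4 (10%). Of all 8644 genes in that range, the interval lay below 0 for 16.1% and above 0 for 18.8%, and beyond a doubling for 1.84% and 2.68%. The list was written with results of these data known, so these shares are a description. The list was not divided by origin, and the genes named here are a selection from it. Lower in CNC AngII were the cardiac factors Hand1 (103 UMIs in SHF AngII and 3 in CNC AngII, log2 of the plain ratio -5.56, -7.86 to -3.97), Nkx2-5 (135 and 10 UMIs, -4.21), Irx5 (304 and 12 UMIs, -5.12), Gata5 (36 and 5 UMIs, -3.30) and Gata4 (237 and 89 UMIs, -1.87). Isl1 was lower as well (191 and 70 UMIs, -1.90), as were Snai1 (231 and 146 UMIs, -1.12), Twist2 (428 and 392 UMIs, -0.58) and Msx1 (876 and 912 UMIs, -0.40). Tcf21, a factor of epicardium and fibroblasts, was also lower (948 and 42 UMIs, -4.95), and stood at 127 CPM in SHF AngII fibroblasts against 13.96 CPM in smooth muscle.

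Higher in CNC AngII were Hoxd4 (1 UMI in SHF AngII and 140 in CNC AngII, 6.67, 4.17 to 11.99), Tbx15 (4 and 226 UMIs, 5.37), Tbx1 (3 and 56 UMIs, 3.77) and Tfap2a (12 and 136 UMIs, 3.05). Hand1 and Nkx2-5 stood at 2.49 and 2.16 CPM at SHF baseline, and Hoxd4, Tbx15 and Tfap2a at 0, 0.146 and 0.110 CPM. In the striated muscle list, 17 genes lay in the same range, with the interval below 0 for 10 (58.8%) and above 0 for 1 (5.88%), against the same 16.1% and 18.8% of all genes. Trim63, a muscle ubiquitin ligase (60 and 1 UMIs, -6.36), Unc45b, a myosin chaperone (258 and 7 UMIs, -5.66), Pln, phospholamban (743 and 344 UMIs, -1.57), and Actc1, cardiac actin (240 and 136 UMIs, -1.27), were lower in CNC AngII. Of the cardiomyocyte markers as a list, 8 of 10 were lower and 2 higher in CNC AngII, with sums of 32.1 and 38.4 CPM. All of these levels rest on few UMIs in 1 library per group.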
